A study of Mus musculus with 7 samples.

Results

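The 9 genes described here encode secreted proteins of the extracellular matrix: fibronectin (Fn1), tenascin C (Tnc), tenascin X (Tnxb), periostin (Postn), SPARC (Sparc), its relative SPARC-like 1 (Sparcl1), spondin 2 (Spon2), nidogen 1 (Nid1) and perlecan (Hspg2). They were taken by gene symbol from a table of 29869 genes, and each of the 9 was found there and passed the filter on low counts. Transcripts had been counted by RNA sequencing in whole soleus, a slow-twitch hindlimb muscle, of 7 mice aged 60 days. All mice carried mdx, the mutation that removes dystrophin and models Duchenne muscular dystrophy. By the sample titles, 3 libraries came from mdx/Runx1f/f mice, which also carry floxed alleles of Runx1, a transcription factor gene induced in damaged and denervated muscle, and 4 came from mdx mice. The labels name no Cre driver and no deleted part of Runx1, and they name a different animal for each library. The comparison asks which transcripts respond to Runx1 in dystrophic muscle, as the title of the series says.

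Fibronectin is assembled into fibrils by cells that bind it through integrins, and these fibrils form the first scaffold of repairing tissue. Tenascin C, periostin and SPARC are matricellular proteins: they alter how cells attach to the matrix rather than bearing load, and they are produced in development and after injury. Nidogen 1 and perlecan belong to the basement membrane that sheathes each muscle fibre, where they join laminin to collagen IV.

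Runx1 itself went against the labels. Its normalised read count, the authors' count divided by a size factor for the library, was 919, 925 and 596 in libraries labelled mdx/Runx1f/f (replicates 1 to 3), against 274, 273, 235 and 201 in those labelled mdx (replicates 1 to 4), and the log2 fold change was 1.74 (SE 0.18, edgeR adjusted p = 0.00795). The counts are per gene and not per exon, so whether a part of Runx1 was deleted in any library was not tested. The cause of the higher Runx1 counts was not tested either. The numbers in the sample descriptions also disagree with the titles: by them animals 373, 374 and 375 would be mdx/Runx1f/f and animals 358, 359, 361 and 363 mdx. The design text gives 4 mice as mdx/Runx1f/f and 3 as mdx, the reverse of the titles. Because of this, the groups are called by their labels and every direction below rests on the titles, which the authors' deposited fold changes follow. Total counts per library lay between 16218306 and 20847902. The animal numbers in the titles fall in a run from 358 to 363 and a run from 373 to 375, and each run holds libraries of both groups. Of those labelled mdx/Runx1f/f, only replicate 3, animal 374, is in the run from 373 to 375. Each group difference within that run thus rests on that library. Slow-fibre markers, which define this muscle, had 6 of 6 members detected and tested. Their summed level was 6104, 23767 and 20076 CPM (counts scaled to a common library total) in mdx/Runx1f/f replicates 1 to 3, against 21955 to 37272 CPM in the libraries labelled mdx, and 0 of the 6 were called by edgeR (3 lower at an unadjusted p below 0.05, 2 called by DESeq2 and 0 by limma-voom). As edgeR called 6.95% of all tested genes, 0 of 6 says nothing particular to these markers.

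Of the 9 genes, 6 rose and 0 fell in libraries labelled mdx/Runx1f/f, called at an adjusted p below 0.05 in the quasi-likelihood test of edgeR, adjusted over 14033 genes after Benjamini and Hochberg. By the same rule 6.95% of all tested genes were called, 5.10% as higher and 1.85% as lower. The 6 were Tnc, Postn, Fn1, Tnxb, Sparc and Nid1, with log2 fold changes of 2.06, 1.79, 1.69, 1.15, 0.80 and 0.79. In these 6 each library labelled mdx/Runx1f/f stood above each library labelled mdx, a pattern that 13.9% of all tested genes share, while 13.6% have the reverse. Of the 9 genes, 4 were both called and at least 2-fold higher, against 3.25% of all tested genes. Sparcl1, Hspg2 and Spon2 were not called, and their groups overlapped. The median log2 fold change of the 9 was 1.15, against -0.0016 over all tested genes. Together the 9 genes took 0.496%, 0.672% and 0.656% of all counts in mdx/Runx1f/f replicates 1 to 3, and 0.289%, 0.339%, 0.210% and 0.335% in mdx replicates 1 to 4. The number called depended on single libraries: 4, 1 and 2 of the 9 were called without mdx/Runx1f/f replicates 1, 2 and 3, and 4, 3, 2 and 3 without mdx replicates 1, 2, 3 and 4. With the animals grouped by the descriptions instead, 0 of the 9 were called by edgeR (1 higher at an unadjusted p below 0.05, 1 called by DESeq2 and 0 by limma-voom). Under that grouping edgeR called 8 of the 14033 genes, or 0.0570%, so a count of 0 among 9 says nothing particular to them.

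**Figure D1:**
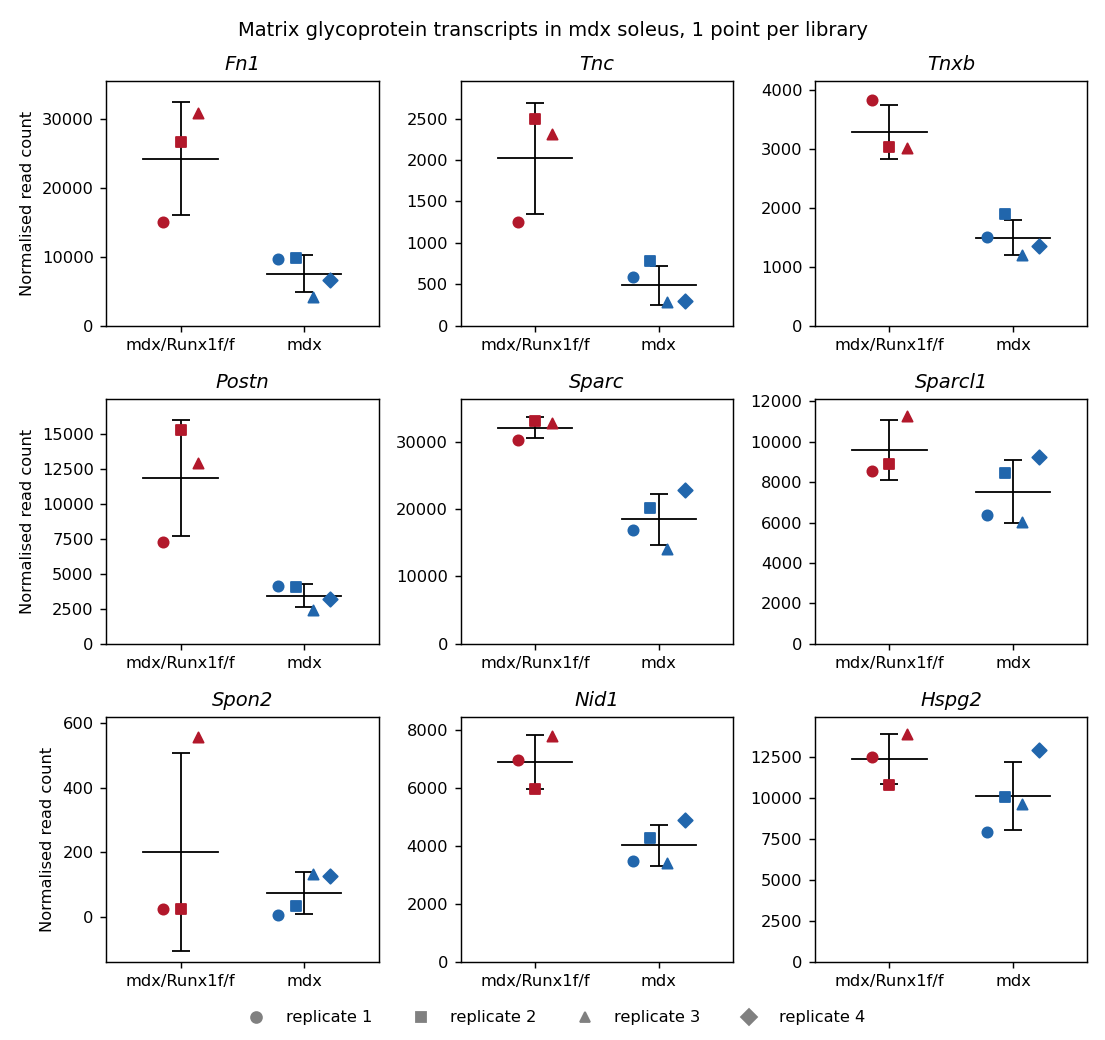
Normalised read counts of the 9 genes (vertical axes, linear) in each library, with the 3 libraries labelled mdx/Runx1f/f on the left and the 4 labelled mdx on the right of each panel. Points are libraries, with a marker shape for each replicate number, horizontal lines are means and bars are SD. The groups are apart in 6 panels and overlap for Sparcl1, Spon2 and Hspg2, and Spon2 has 1 point at 555.

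Promoter windows for 6 of the 9 genes, with 8 start sites among them, were found in a RefSeq table of the GRCm38.p6 build. The 250 bases before each start were searched on both strands for 4 motifs: TGTGGT, the core bound by Runx proteins; TGANTCA, the AP-1 site; GGAATG, the TEAD core; and TATAAA, the TATA box. No window of the 8 held TGTGGT, which 14% of all 32851 windows of that length held. TATAAA occurred in 3 windows, of Tnc and Postn (12.4% of all windows), TGANTCA in 1, of Tnxb (6.75%), and GGAATG in 1, of Nid1 (12.6%). Both Tnc windows overlap and hold the same TATAAA, 205 and 126 bases before their starts, so it is counted for each. The windows of these 4 called genes are given 5′ to 3′ on the strand of the gene, with capitals for the motif match. A match is only a match of letters, and no match says only that these letters are not in this window.
Tnc, chr4:64047016-64047265, minus strand: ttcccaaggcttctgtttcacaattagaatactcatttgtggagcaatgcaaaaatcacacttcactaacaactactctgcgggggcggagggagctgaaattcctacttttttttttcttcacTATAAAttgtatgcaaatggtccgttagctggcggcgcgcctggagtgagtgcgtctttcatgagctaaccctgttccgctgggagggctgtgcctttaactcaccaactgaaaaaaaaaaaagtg
Tnxb, chr17:34670285-34670534, plus strand: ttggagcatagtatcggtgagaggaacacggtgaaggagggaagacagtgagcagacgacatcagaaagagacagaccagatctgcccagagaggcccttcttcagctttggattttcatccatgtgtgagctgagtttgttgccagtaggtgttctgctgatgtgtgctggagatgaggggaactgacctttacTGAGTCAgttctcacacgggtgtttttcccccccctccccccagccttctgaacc
Postn, chr3:54360857-54361106, plus strand: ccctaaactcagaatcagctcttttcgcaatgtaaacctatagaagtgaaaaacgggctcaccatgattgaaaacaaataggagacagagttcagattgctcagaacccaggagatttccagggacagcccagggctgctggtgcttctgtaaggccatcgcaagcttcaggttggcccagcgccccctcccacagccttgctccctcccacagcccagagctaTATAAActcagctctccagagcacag
Nid1, chr13:13437352-13437601, plus strand: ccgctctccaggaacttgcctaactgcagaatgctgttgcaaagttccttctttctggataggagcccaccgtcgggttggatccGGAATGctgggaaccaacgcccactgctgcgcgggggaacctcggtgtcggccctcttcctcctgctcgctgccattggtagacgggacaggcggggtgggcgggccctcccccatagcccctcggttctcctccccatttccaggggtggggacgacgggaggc
In the Postn window the capitals begin 26 bases before the start, and in the Tnc window 126 bases before it.

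Fn1, the gene of fibronectin, had 15009, 26690 and 30809 normalised counts in mdx/Runx1f/f replicates 1 to 3, against 9645, 9759, 4092 and 6585 in mdx replicates 1 to 4. The lowest library labelled mdx/Runx1f/f, replicate 1, stood nearer to the highest libraries labelled mdx than to the other libraries of its own group. The means were 24169 ± 8196 (SD, n = 3) and 7520 ± 2718 (SD, n = 4), and the fitted difference was 3.22-fold (log2 fold change 1.69, SE 0.35, edgeR adjusted p = 0.0330, 5.99e-05 to 0.102 over the alternatives with the titles' groups). That call was lost without mdx/Runx1f/f replicate 2 or 3 (edgeR adjusted p = 0.0970 and 0.0636) and without mdx replicate 2, 3 or 4 (edgeR adjusted p = 0.0586, 0.0651 and 0.0835). The log2 difference was 1.05 within animals 358 to 363 and 2.58 within animals 373 to 375. As the groups did not overlap, a positive difference within each run was fixed in advance and adds no support. In GENCODE M21 an exon of Fn1 shares 183 bases with Apol7d on the opposite strand, and one of Nid1 shares 143 bases with Gm48682. Whether counting used the strand is not given in the sources used here, so reads of these stretches cannot be told apart.

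Tnc, which encodes tenascin C, a hexameric glycoprotein with little expression in resting adult muscle, had the largest fold change of the 9. It stood at 1251, 2495 and 2311 normalised counts in mdx/Runx1f/f replicates 1 to 3, against 591, 775, 279 and 295 in mdx replicates 1 to 4. The difference was 4.18-fold (log2 fold change 2.06, SE 0.40, edgeR adjusted p = 0.0281, 1.64e-05 to 0.0876 over the alternatives). As for Fn1, mdx/Runx1f/f replicate 1 was the lowest of its group and mdx replicates 3 and 4, from animals 373 and 375, were the lowest of theirs. The Tnc call was lost without mdx/Runx1f/f replicate 2 or 3 (edgeR adjusted p = 0.0876 and 0.0569) and without mdx replicate 3 or 4 (edgeR adjusted p = 0.0711 and 0.0635). Within animals 358 to 363 its log2 difference was 1.39. Within animals 373 to 375, where only mdx/Runx1f/f replicate 3 carries that label, it was 3.01.

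Tnxb encodes tenascin X, a large matrix protein of connective tissue whose loss in humans causes a form of Ehlers-Danlos syndrome. Its normalised counts were 3816, 3026 and 3018 in mdx/Runx1f/f replicates 1 to 3, against 1510, 1893, 1200 and 1350 in mdx replicates 1 to 4. Here mdx/Runx1f/f replicate 1 was the highest of its group, the reverse of its place for Fn1, Tnc and Postn. The means were 3287 ± 459 (SD, n = 3) and 1488 ± 298 (SD, n = 4), a 2.22-fold difference (log2 fold change 1.15, SE 0.17, edgeR adjusted p = 0.0157). Tnxb was the member whose call held whichever library was left out, with edgeR adjusted p-values of 0.0194 to 0.0416 over those fits and 3.53e-07 to 0.0467 over every alternative but the other grouping of animals. The log2 difference was 1.01 and 1.25 within animals 358 to 363 and 373 to 375. Reads of Tnxb can be shared with its partial copy Tnxa, so its counts are uncertain to that extent.

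Postn encodes periostin, a matricellular protein secreted by fibroblasts that binds fibronectin, tenascin C and collagen. It had 7277, 15305 and 12948 normalised counts in mdx/Runx1f/f replicates 1 to 3, against 4089, 4071, 2394 and 3168 in mdx replicates 1 to 4. The groups were apart, with replicate 1 again the lowest of those labelled mdx/Runx1f/f. The difference was 3.46-fold (log2 fold change 1.79, SE 0.28, edgeR adjusted p = 0.0168), and the call was lost without mdx/Runx1f/f replicate 2 (edgeR adjusted p = 0.0547, 1.34e-07 to 0.0574 over the alternatives). Within animals 358 to 363 the log2 difference was 1.38, and within animals 373 to 375 it was 2.24.

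Sparc and Sparcl1 encode related collagen-binding glycoproteins, and Sparc passed the test while Sparcl1 did not. Sparc had 30252, 33103 and 32750 normalised counts in mdx/Runx1f/f replicates 1 to 3, against 16810, 20197, 14096 and 22768 in mdx replicates 1 to 4. The libraries labelled mdx/Runx1f/f lay close together, at a mean of 32035 ± 1554 (SD, n = 3), against 18468 ± 3801 (SD, n = 4) in those labelled mdx. The Sparc difference was 1.74-fold (log2 fold change 0.80, SE 0.19, edgeR adjusted p = 0.0442), near the threshold, and it was lost in each fit that left out a library. Those edgeR adjusted p-values were 0.0651, 0.123 and 0.0707 without mdx/Runx1f/f replicates 1, 2 and 3, and 0.0843, 0.0802, 0.0959 and 0.0565 without mdx replicates 1, 2, 3 and 4, with log2 fold changes of 0.69 to 0.92. Sparcl1, also called hevin and abundant in endothelial and mural cells, had 8549, 8907 and 11273 normalised counts in mdx/Runx1f/f replicates 1 to 3, against 6377, 8461, 6039 and 9265 in mdx replicates 1 to 4. Its groups overlapped, and its log2 fold change was 0.35 (SE 0.19, edgeR adjusted p = 0.250).

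Of the basement membrane genes among the 9, Nid1 was called and Hspg2 was not. Nid1 had 6947, 5938 and 7767 normalised counts in mdx/Runx1f/f replicates 1 to 3, against 3476, 4279, 3390 and 4876 in mdx replicates 1 to 4. The groups did not overlap, and the difference was 1.73-fold (log2 fold change 0.79, SE 0.16, edgeR adjusted p = 0.0331). That call held without mdx replicate 4 and was lost without any other library (edgeR adjusted p = 0.0641, 0.0603 and 0.0648 without mdx/Runx1f/f replicates 1, 2 and 3, and 0.0589, 0.0666 and 0.0872 without mdx replicates 1, 2 and 3). Hspg2, the gene of perlecan, a heparan sulfate proteoglycan, had 12481, 10808 and 13884 normalised counts in mdx/Runx1f/f replicates 1 to 3, against 7931, 10068, 9657 and 12918 in mdx replicates 1 to 4. In Hspg2, mdx replicate 4 stood above 2 of the 3 libraries labelled mdx/Runx1f/f, and the log2 fold change was 0.30 (SE 0.18, edgeR adjusted p = 0.313).

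Spon2, which encodes spondin 2, a secreted protein of the F-spondin family with a role in innate immunity, parted the libraries by animal number rather than by label. It had 25.5, 23.5 and 555 normalised counts in mdx/Runx1f/f replicates 1 to 3, against 5.28, 33.4, 134 and 127 in mdx replicates 1 to 4. The 3 high libraries are those of animals 373, 374 and 375, and the 4 low ones those of animals 358, 359, 361 and 363. Among all tested genes 5.79% likewise had those 3 animals above the other 4. This split is also that of the genotypes as the descriptions number the animals, so for Spon2 the run of animal numbers and that reading of the genotypes cannot be told apart. Between the labels the log2 fold change was 1.42 (SE 1.23, edgeR adjusted p = 0.468), and without mdx/Runx1f/f replicate 3 it was -1.61 (edgeR adjusted p = 0.337, 0.107 to 0.824 over the alternatives). A fit with the run of animal numbers beside the label, chosen after these values were seen, gave a log2 difference of 3.63 for animals 373 to 375 over animals 358 to 363 (SE 0.50, edgeR adjusted p = 0.0443). In that fit 52 genes, 0.371% of those tested, were called, and Spon2 had the largest positive difference of all 14033. By the absolute size of the difference, Spon2 ranked 8. Its raw counts were 121, 512 and 129 in animals 373, 374 and 375, against 5, 26, 32 and 31 in animals 358, 359, 361 and 363. The call was kept without mdx/Runx1f/f replicate 1 or mdx replicate 2 and lost without each of the others (edgeR adjusted p = 0.124 and 0.207 without mdx/Runx1f/f replicates 2 and 3, and 0.123, 0.155 and 0.162 without mdx replicates 1, 3 and 4), with log2 differences of 2.75 to 4.52 over the 7 fits. The other 8 genes had log2 differences between the runs of -0.56 to 0.30, and 0 of them were called by edgeR (1 lower at an unadjusted p below 0.05, 0 called by limma-voom).

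**Figure D2:**
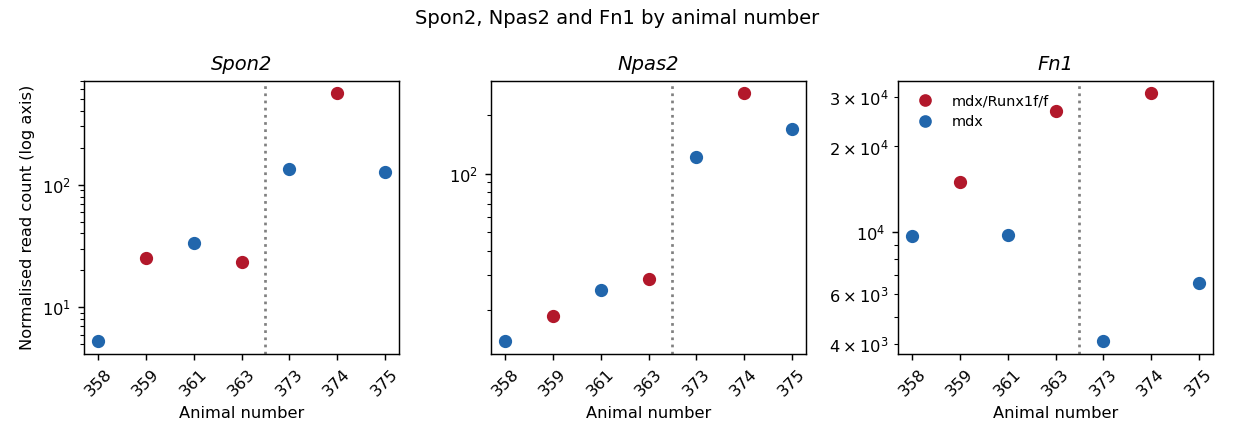
Normalised read counts (log axes) of Spon2, Npas2 and Fn1 against the animal number in the sample titles, with 1 point per library, red for libraries labelled mdx/Runx1f/f and blue for those labelled mdx. The dotted line parts animals 358 to 363 from animals 373 to 375: Spon2 is at 5.28 to 33.4 on the left and at 127 to 555 on the right, while Fn1 follows the labels on both sides.

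**Figure D3:**
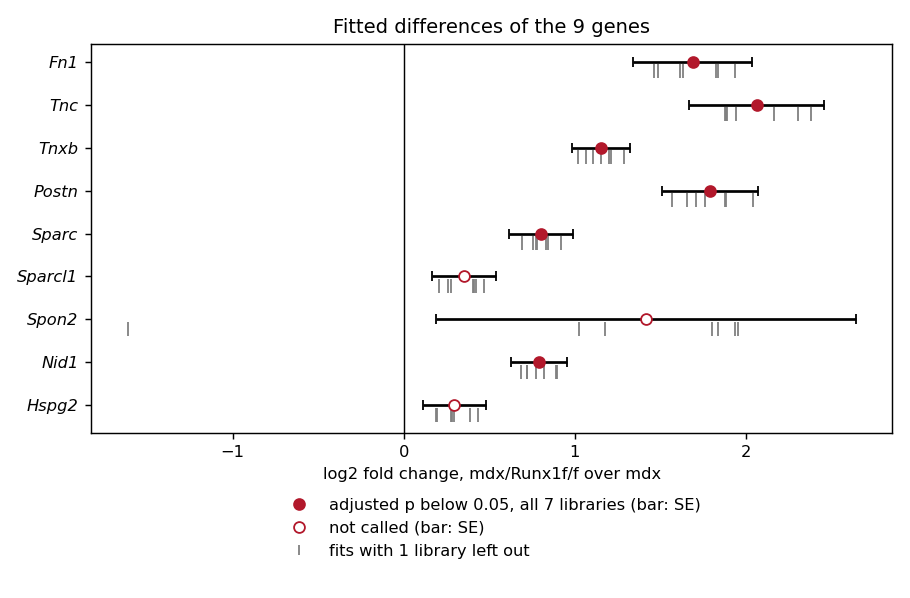
Fitted log2 fold change of each gene (horizontal axis, libraries labelled mdx/Runx1f/f over those labelled mdx). Circles are the fit on all 7 libraries with its SE, filled where the adjusted p was below 0.05, and grey ticks are the 7 fits that each left out a library. The ticks of 8 genes stay to the right of 0, and 1 tick of Spon2 lies at -1.61.

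In the authors' deposited table the same 6 genes had an adjusted p below 0.05 with positive log2 fold changes, as did 11.2% of the 14935 genes with an adjusted p there. The deposited log2 fold changes were 1.57 for Tnc, 1.54 for Postn, 1.36 for Fn1, 1.07 for Tnxb, 0.75 for Sparc and 0.74 for Nid1. In the authors' deposited table those of Sparcl1, Spon2 and Hspg2 were 0.32, 0.32 and 0.27, with adjusted p-values of 0.236, 0.521 and 0.304.

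Levels were set side by side as normalised counts per kilobase of exon, with exon lengths from GENCODE M21, which may differ from the annotation the authors counted on. Sparc was the highest of the 9 in both groups, at 11773 ± 571 per kilobase in libraries labelled mdx/Runx1f/f (SD, n = 3) and 6787 ± 1397 in those labelled mdx (SD, n = 4). Postn, Sparcl1 and Fn1 followed in libraries labelled mdx/Runx1f/f, at 3601 ± 1255, 3471 ± 537 and 2851 ± 967 per kilobase (SD, n = 3), within each other's spread. In the libraries labelled mdx the second place was that of Sparcl1, at 2731 ± 570 per kilobase (SD, n = 4). Below it came Postn (1043 ± 247), Fn1 (887 ± 321), Hspg2 (714 ± 145) and Nid1 (658 ± 116), whose ranges overlapped. Nid1 and Hspg2 had 1130 ± 150 and 872 ± 108 per kilobase in libraries labelled mdx/Runx1f/f. The tenascins were far lower, Tnxb at 269 ± 37.6 and 122 ± 24.4 and Tnc at 260 ± 86.4 and 62.4 ± 30.9 per kilobase in libraries labelled mdx/Runx1f/f and mdx. Spon2 averaged 98.5 ± 150 and 36.6 ± 31.9 per kilobase, the lowest means of the 9, but its place differed between the runs of animal numbers. It was the lowest of the 9 in each library of animals 358 to 363. In mdx/Runx1f/f replicate 3 it stood at 272 per kilobase, above Tnxb at 247, and in mdx replicates 3 and 4 at 65.3 and 62.3 per kilobase, above Tnc at 35.9 and 38.0.

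Whether pairs of these genes differed in their response was tested on the log2 CPM difference of both genes within each library, for 4 pairs. With 3 libraries against 4, a two-sided exact permutation test cannot give a p below 0.0286. Sparc exceeded Sparcl1 by 1.75 ± 0.19 (SD, n = 3) in libraries labelled mdx/Runx1f/f and by 1.29 ± 0.08 (SD, n = 4) in those labelled mdx, with no overlap. The exact permutation p of that pair was 0.0286, the smallest the design allows, or 0.114 adjusted over the 4 pairs. Fn1 minus Hspg2 was 0.91 ± 0.56 (SD, n = 3) against -0.49 ± 0.73 (SD, n = 4), and the libraries overlapped (exact permutation p = 0.0857, adjusted 0.171). Tnc minus Tnxb was -0.76 ± 0.74 (SD, n = 3) against -1.73 ± 0.48 (SD, n = 4; exact permutation p = 0.143, adjusted 0.190), and mdx/Runx1f/f replicate 1, at -1.61, lay inside the range of the libraries labelled mdx. Postn minus Fn1 was -1.03 ± 0.22 (SD, n = 3) against -1.08 ± 0.23 (SD, n = 4; exact permutation p = 0.886). No pair passed after adjustment, which does not show that the genes of a pair responded alike. A pair alone at the smallest exact permutation p has 0.114 after adjustment, so by itself it could not have passed. Within animals 358 to 363 and 373 to 375 the group difference was 0.53 and 0.28 for Sparc minus Sparcl1, 0.67 and 2.26 for Fn1 minus Hspg2, 0.38 and 1.76 for Tnc minus Tnxb, and 0.33 and -0.34 for Postn minus Fn1.

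**Figure D4:**
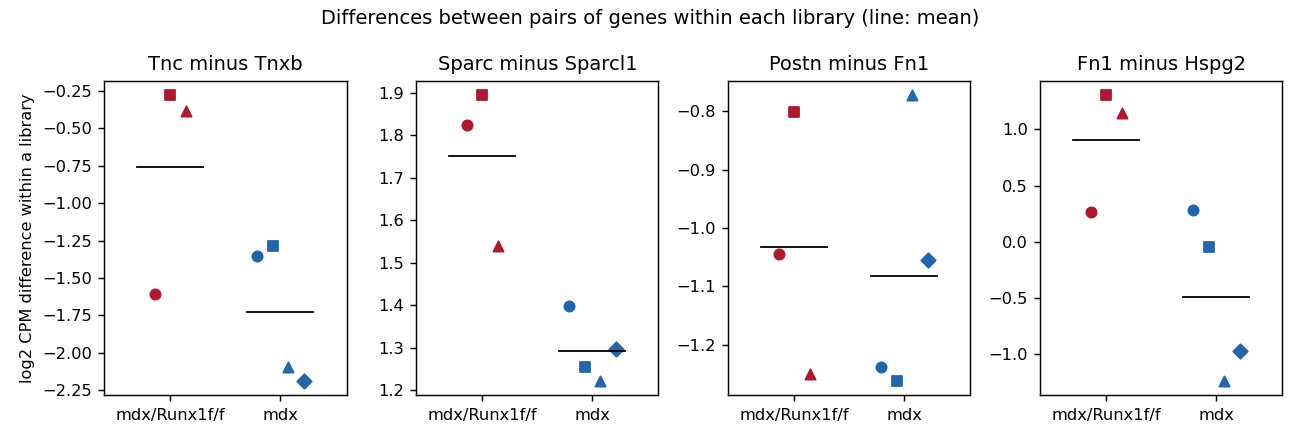
Difference in log2 CPM between both genes of a pair within each library (vertical axes), for 4 pairs, with libraries labelled mdx/Runx1f/f left of those labelled mdx. Points are libraries, with a marker shape for each replicate number as in the plot of counts by library, and lines are group means. The groups are apart for Sparc minus Sparcl1 and overlap in the other 3 panels.

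The likeness of profiles was measured as the root mean square difference in log2 CPM over the 7 libraries, after each gene was centred on its own mean. Among the 9 genes the closest profiles were those of Sparc and Nid1 (0.13), Sparcl1 and Hspg2 (0.15) and Fn1 and Postn (0.19), while Spon2 was at least 1.74 from each of the others. Among 10758 other genes with a mean of 50 or more normalised counts, the closest to Fn1 was the thrombospondin gene Thbs4 (0.17), and the closest to Tnc was Emb (0.20), which encodes the adhesion molecule embigin. Pcolce2, the gene of an enhancer of procollagen processing, was closest to Tnxb (0.09), and Inhbb, a subunit gene of activin, was closest to Postn (0.13). The secreted-protein gene Oaf was closest to Sparc (0.08), the hexokinase gene Hk1 to Sparcl1 (0.06), the tetraspanin gene Tspan11 to Nid1 (0.09) and the chaperone gene Hspa12a to Hspg2 (0.09). The closest to Spon2 was Npas2 (0.66), which encodes a transcription factor of the circadian clock. Npas2 had 18.6, 28.8 and 258 normalised counts in mdx/Runx1f/f replicates 1 to 3, against 13.7, 25.1, 121 and 169 in mdx replicates 1 to 4, so it too was high in animals 373 to 375. The next after it was the clock gene Arntl (0.95), named after its values were seen, at 53.9, 64.5 and 715 normalised counts in mdx/Runx1f/f replicates 1 to 3 and 80.3, 70.0, 530.0 and 567 in mdx replicates 1 to 4. In the fit with both terms the log2 difference of animals 373 to 375 over 358 to 363 was 3.14 for Npas2 and 3.17 for Arntl, which describes genes picked for their likeness to Spon2 and is no test of the split. The labels give no time of tissue collection.

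Other genes of the same families were read from a list of 34 symbols, of which 28 were in the table and 24 were tested. Of these 24, 12 rose and 0 fell in libraries labelled mdx/Runx1f/f, with a median log2 fold change of 1.23. The shares over all tested genes were 5.10% higher and 1.85% lower. The smallest p-values were those of the thrombospondin gene Thbs3 (log2 fold change 1.28, edgeR adjusted p = 0.00853), the matrix glycoprotein gene Ecm1 (1.39, edgeR adjusted p = 0.0101) and the fibulin gene Fbln1 (1.82, edgeR adjusted p = 0.0116). Thbs3 had 1057, 1123 and 1109 normalised counts in mdx/Runx1f/f replicates 1 to 3, against 447, 540, 343 and 485 in mdx replicates 1 to 4, and these 3 calls held whichever library was left out. Thbs4 differed by 1.53 on the log2 scale and was not called (edgeR adjusted p = 0.0504). Without mdx/Runx1f/f replicate 2 the number higher was 4, and without mdx replicates 3 and 4 it was 7 and 6.

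Receptors for these and other matrix proteins, collagens among them, were read from a list of 23. Of the 23 tested integrin, syndecan and other receptor genes, 6 were higher and 1 lower, with a median log2 fold change of 0.73. Among all tested genes 5.10% were higher and 1.85% lower. The smallest p-values were those of Ddr2, a collagen receptor of fibroblasts (log2 fold change 0.97, edgeR adjusted p = 0.0157), Itgb3, the integrin β3 gene (1.15, edgeR adjusted p = 0.0223), and the syndecan gene Sdc1 (1.04, edgeR adjusted p = 0.0227). The 1 lower gene was Itgb6, an integrin subunit gene (-0.57, edgeR adjusted p = 0.0326), named for being the only one. Its call was lost without mdx/Runx1f/f replicate 1 or 2 (edgeR adjusted p = 0.0705 and 0.107) and without mdx replicate 1, 3 or 4 (edgeR adjusted p = 0.0527, 0.0867 and 0.0766), with log2 fold changes of -0.68 to -0.51 over the 7 fits that left out a library, and with the replicate block (edgeR adjusted p = 0.0560). Itga5 and Itgb1, which together encode the classical fibronectin receptor, were looked up after the fit and had log2 fold changes of 0.31 and 0.32 (edgeR adjusted p = 0.331 and 0.183). Itga4, Itga9 and Cd44, the rest of the 6 called higher, had log2 fold changes of 1.59, 1.20 and 1.34 (edgeR adjusted p = 0.0352, 0.0405 and 0.0454). The number of receptor genes called was 4 and 2 without mdx/Runx1f/f replicates 1 and 2, and 3, 1 and 2 without mdx replicates 2, 3 and 4. Calls were lost for Itgb3 without mdx/Runx1f/f replicate 2 or 3 and mdx replicate 2 or 3, and for Sdc1 without mdx/Runx1f/f replicate 2 and mdx replicate 3 or 4, with log2 fold changes of 1.04 to 1.32 and 0.83 to 1.18 over the fits that left out a library.

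Of 15 tested basement membrane partners of Nid1 and Hspg2, 1 was higher and 0 lower, with a median log2 fold change of 0.27. Over all tested genes 5.10% were called higher and 1.85% lower, so 1 of 15 is near the share of all genes. The higher gene was Col18a1, which encodes collagen XVIII, the precursor of endostatin, at 1037, 1162 and 1349 normalised counts in mdx/Runx1f/f replicates 1 to 3, against 468, 635, 402 and 655 in mdx replicates 1 to 4 (log2 fold change 1.14, edgeR adjusted p = 0.0185). Without mdx/Runx1f/f replicate 2 it was not called (edgeR adjusted p = 0.0577) and the count was 0, and without mdx replicate 4 the count was 2. The laminin genes Lama2 and Lamc1 had log2 fold changes of 0.46 and 0.52 (edgeR adjusted p = 0.0703 and 0.0950).

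Markers of several cell types moved with these genes. The counts below stand against 5.10% of all tested genes called higher and 1.85% called lower. Of 9 markers of fibro-adipogenic progenitors, the matrix-forming stromal cells of muscle, 6 were higher and 0 lower (median log2 fold change 1.12), and their summed level was 2119 to 2307 CPM in libraries labelled mdx/Runx1f/f and 769 to 1130 CPM in those labelled mdx. Their defining receptor gene Pdgfra was higher by 1.08 on the log2 scale (edgeR adjusted p = 0.0105). Macrophage markers summed to 795 to 2290 CPM and 172 to 778 CPM, with 4 of 10 higher (Cx3cr1, C1qa, C1qb and C1qc; median 1.67). Adipocyte markers summed to 105 to 354 CPM and 30.1 to 72.4 CPM, with 4 of 5 higher (Adipoq, Cfd, Plin1 and Cidec; median 2.26). For tendon markers the sums were 413 to 850 CPM and 105 to 314 CPM, and Egr2 was the 1 of 7 called higher, while the defining genes Scx and Tnmd had log2 fold changes of -0.47 and 1.00 (edgeR adjusted p = 0.239 and 0.176). Schwann cell markers summed to 114 to 124 CPM and 59.2 to 85.1 CPM, with S100b and Mbp higher of 6 tested. Of T and NK cell markers 1 of 7 reached the filter, Klrk1, and the sums were 2.16 to 4.01 CPM and 0.605 to 1.25 CPM. Klrk1 had 22, 20 and 30 raw counts in mdx/Runx1f/f replicates 1 to 3, against 6, 9, 9 and 6 in mdx replicates 1 to 4. It reached the filter only through the libraries labelled mdx/Runx1f/f, so its call as higher says nothing about T or NK cells. Mural cell markers summed to 996 to 1287 CPM and 796 to 1079 CPM and endothelial markers to 617 to 820 CPM and 498 to 947 CPM, with 0 of 8 and 0 of 7 called by edgeR (4 higher and 1 lower against 0 at an unadjusted p below 0.05, 2 and 0 called by DESeq2, 0 and 0 by limma-voom). Satellite cell markers summed to 34.7 to 68.7 CPM and 39.5 to 48.8 CPM, with 0 of 5 called by edgeR (1 lower at an unadjusted p below 0.05, 1 called by DESeq2 and 0 by limma-voom). Beside the shares over all tested genes, counts of 0 of 8, 0 of 7 and 0 of 5 say nothing particular to these cell types. No marker of these lists was at 0 in every library. In whole muscle more cells of a type and more RNA per cell cannot be told apart, and the part of these cell types in the differences of the 9 genes was not tested.

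**Figure D5:**
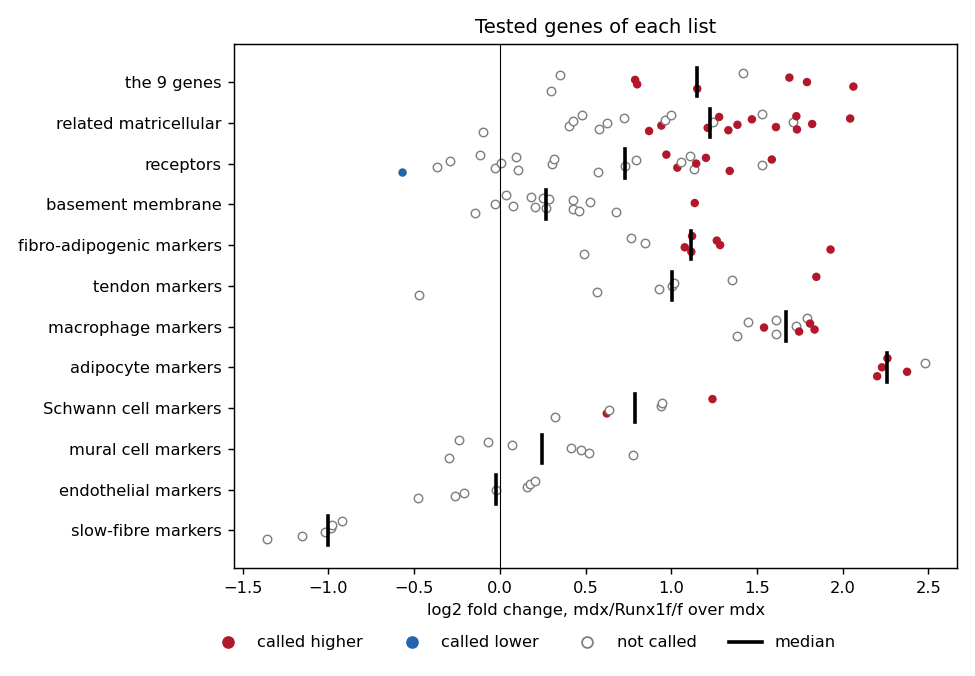
Log2 fold change of each tested gene (horizontal axis, libraries labelled mdx/Runx1f/f over those labelled mdx) in the 9 genes, the related lists and the marker lists, apart from the T and NK cell and satellite cell markers. Points are genes, filled red where called higher, blue where called lower and open where not called, and black bars are medians. The medians run from 2.26 for adipocyte markers down to -1.0 for slow-fibre markers, with the 9 genes at 1.15.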

How the data were processed

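RNA from whole soleus was sequenced in 7 libraries. The authors deposited 1 table of raw counts per gene with size-factor normalised values (a signal per library), log2 fold changes and p-values of their own comparison. Per the submitters' processing notes, TopHat2 2.0.10, HTSeq, DESeq2 1.6.3 and the mm9 build were used; the gene annotation and the strand setting were not given in the sources used here. Dividing the deposited counts by the normalised values gave 1 factor per library.

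Raw counts were tested with edgeR 4.0.16 (R 4.3.3; filterByExpr, TMM, quasi-likelihood) over 14033 genes holding 99.9% of counts, with Benjamini-Hochberg adjustment and a threshold of 0.05. SE is the log2 fold change divided by the root of F. Calling was also tested on simulated counts, where 49% of 2-fold and 88% of 4-fold changes were recovered and 4.2% of calls were false. A gene that was not called may thus still differ by 2-fold. CPM on the log2 scale used a prior count of 2. DESeq2 1.42.0, limma-voom (limma 3.58.1), RLE size factors, no filter, a replicate block, the run of animal numbers as covariate, the grouping by the sample descriptions and leaving out each library were alternatives. No 2 libraries agreed within sampling noise. The labels give 1 animal per library. Promoters came from a RefSeq table (GRCm38.p6), whose coordinates are not those of mm9, and exon lengths from GENCODE M21.

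Genes were named by rule: Runx1, the 9 genes, the 3 smallest p-values of the related, receptor and basement membrane lists, and the closest profile to each of the 9. The 9 genes, the lists, the marker lists and the tests were chosen with earlier results of these data known.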

Additional observations from a re-analysis of the deposited data

How the results depend on the processing

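The 6 calls among the 9 genes were made in every fit with DESeq2, limma-voom, RLE size factors, no filter and the run of animal numbers as covariate. With the replicate block 1 was called, and with animals grouped by the sample descriptions 0 were. Leaving out a library left 1 to 4. Over all genes 975 were called, against 2365 with DESeq2 (62.7% higher, against 73.3%), 1828 with the covariate, 320 with the block, 8 with the grouping by descriptions and 190 to 803 without a library. Related matricellular genes called were 12, or 18 with DESeq2, 16 with the covariate, 6 with the block and 4 to 11 without a library. Receptor genes called were 7, or 12 with DESeq2, 11 with the covariate, 2 with the block and 1 to 6 without a library. Basement membrane genes called were 1, or 3 with DESeq2, 3 with the block, 2 with the covariate and 0 to 2 without a library.

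With the replicate block the edgeR adjusted p was 0.102 for Fn1 (log2 fold change 1.67), 0.0637 for Tnc (1.93), 0.0574 for Postn (1.74), 0.0609 for Sparc (0.94) and 0.0618 for Nid1 (0.90). Same-numbered libraries were also compared after the mean of its group was subtracted from each gene's log2 CPM. These deviations, not the whole profiles, correlated at -0.00687, 0.241 and 0.275 between same-numbered libraries. No mdx/Runx1f/f library correlated best with its own number. By animal number these pairs are 359 and 358, 363 and 361, and 374 and 373, each within the same run. With so few libraries the correlations cannot show whether a pair shares more than a number.

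Directions turned for Npas2, at -0.10 with limma-voom against 0.29 and -1.79 to 0.92 without a library, for Spon2 (-1.61 to 1.95) and for Postn minus Fn1 (-0.066, -0.0026 and -0.010 without mdx/Runx1f/f replicate 2 and mdx replicates 1 and 2, up to 0.16; 0.33 within animals 358 to 363 and -0.34 within animals 373 to 375). Sparc minus Sparcl1 was 0.39 to 0.57, Tnc minus Tnxb 0.73 to 1.40 and Fn1 minus Hspg2 1.15 to 1.72 without a library; within those runs they were 0.53 and 0.28, 0.38 and 1.76, and 0.67 and 2.26. The cause was not tested. Spon2 had 5 raw counts in the lowest library, so its level there rests on few reads.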
